A study of Homo sapiens with 7 samples.

Results

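The hairpins miR-191 and miR-425 lie side by side in an intron of DALRD3, and each gives a 5p and a 3p mature miRNA: hsa-miR-191-5p, hsa-miR-191-3p, hsa-miR-425-5p and hsa-miR-425-3p, written below without the species prefix. The rows of all 4 arms were taken by name from the read counts per mature miRNA, 4 of 2652 miRNAs in each of 7 small RNA libraries, and all 4 passed the filter on low counts. The libraries came from HepG2, an established human liver cancer line that the labels call hepatocellular carcinoma cells. In 6 of them, labelled TEAD1 knockdown, the cells had received siRNA 1 or siRNA 2 against TEAD1 for 24, 36 or 48 h, with 1 library for each siRNA and time. The remaining library, labelled WT, came from untreated cells at 0 h. No library of cells with a control siRNA was analysed here, so effects of the silencing, of transfection as such and of hours in culture cannot be told apart. These small RNA libraries measure neither the mRNA nor the protein of TEAD1, so they do not show how far it was silenced. The labels do not state that each library is a culture of its own, so the spread between libraries behind every p-value below may be technical. In comparisons with untreated or between times, that spread comes from the siRNA 1 and siRNA 2 libraries of each time. Differences between the siRNAs are therefore part of it.

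A miRNA hairpin is cut from its primary transcript by Drosha and from its loop by Dicer. One arm is then kept by an Argonaute protein as the guide, which finds target mRNAs with its seed, while the other arm, the passenger, is mostly lost. miR-191 and miR-425 are transcribed together with DALRD3, whose protein takes part in the methylation of arginine transfer RNA. miR-191-5p is known as an abundant miRNA of liver cancer cells and many other cells and is often used as a reference in PCR assays. TEAD1 is the DNA-binding partner of YAP and TAZ in the Hippo pathway, and the study asked which miRNAs depend on it.

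The mature sequences are shown because each arm carries its own seed, bases 2 to 8, printed in capitals. They are written 5′ to 3′ as the count tables list them, and 3 of the 4 also stand in the RefSeq table used here, with the same letters.
miR-191-5p: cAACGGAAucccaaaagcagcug
miR-191-3p: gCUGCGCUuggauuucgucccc
miR-425-5p: aAUGACACgaucacucccguuga
miR-425-3p: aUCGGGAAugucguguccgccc
The 4 seeds differ from each other, and 0 other miRNAs in the tables share any of them or any of the full sequences, so reads of these arms have no identical annotated partner. The 5p arms are 23 bases long and the 3p arms 22 bases.

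The hairpins, from RefSeq on GRCh38.p14, show how the arms sit on either side of a loop, with the mature arms in capitals.
MIR191: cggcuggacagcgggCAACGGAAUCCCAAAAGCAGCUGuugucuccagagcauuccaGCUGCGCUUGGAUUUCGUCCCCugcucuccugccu
MIR425: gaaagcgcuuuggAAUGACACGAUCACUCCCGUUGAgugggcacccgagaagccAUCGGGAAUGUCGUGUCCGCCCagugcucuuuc
MIR191 lies at chr3:49020618-49020709 and MIR425 at chr3:49020148-49020234, both on the minus strand and 383 bases apart, with MIR191 nearer the start of the host. In GENCODE v29 on GRCh38, 4 DALRD3 transcripts span both hairpins and hold them in an intron in each case. MIR191 also lies in an intron of NDUFAF3, which is annotated on the opposite strand.

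The libraries held 13134601 to 15591345 reads. Of these, 1920832 to 3739729 were assigned to a miRNA in the siRNA-treated libraries (13.4% to 26.5% of reads) and 6171851 in the untreated library (43.1%). Levels below are in CPM, the customary scaling of counts to library size, here to the miRNA reads of a library times its TMM factor, which sets the bulk of miRNAs equal between libraries. Where a count is 0, up to 3 reads are still possible, which is 0.887 to 1.52 CPM in the siRNA-treated libraries and 0.560 CPM in the untreated library. The 36 h libraries with siRNA 1 and siRNA 2 differed most from each other, and held 72.0% of the sum of squares between the siRNAs within times over 458 miRNAs. Of the 6 hepatocyte markers, miR-148a-3p and miR-192-5p gave most of the summed level, 16112 to 27484 CPM with siRNA and 21025 CPM untreated. miR-122-5p, the main hepatocyte miRNA, stood at 45.5 CPM untreated and at 32.2 and 47.6 CPM with siRNA 1 at 24 h and 36 h. In the other siRNA-treated libraries it stood at 3.76 to 6.60 CPM. miR-122-3p and miR-885-5p were at 0 in all 7. Muscle markers summed to 881 CPM with siRNA 1 at 36 h, nearly all of it miR-1-3p at 867 CPM, against 24.1 CPM untreated, and their part in the results was not tested. The blood markers summed to 16.3 to 80.1 CPM with siRNA and 16.0 CPM untreated. Those of fibroblasts and endothelium summed to 444 to 1069 CPM with siRNA and 459.9 CPM untreated. The neuron markers summed to 904 to 1233 CPM with siRNA and 1195 CPM untreated. Nearly all of the neuron sum was miR-218-5p, at 856 to 1174 CPM with siRNA and 1156 CPM untreated. miR-223-3p and miR-124-3p were at 0 throughout.

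miR-191-5p, the guide of its hairpin, stood at 2424, 2598 and 2414 CPM with siRNA 1 at 24, 36 and 48 h. With siRNA 2 it stood at 1713, 2834 and 2705 CPM, and in untreated cells at 2303 CPM (12348 reads, 95% interval 2263 to 2344). The siRNA-treated libraries were thus on both sides of untreated, 5 above and 1 below, and the low value belonged to siRNA 2 at 24 h. Their mean was 2448 ± 395 CPM (SD, n = 6). In each library it ranked between place 37 and place 52 by read count among all miRNAs.

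miR-425-5p, the guide of the neighbouring hairpin, stood at 1604, 1721 and 2927 CPM with siRNA 1 at 24, 36 and 48 h. With siRNA 2 it stood at 2734, 2281 and 2420 CPM, and in untreated cells at 2962 CPM (15881 reads, 95% interval 2916 to 3008). On this TMM scale all 6 siRNA-treated values were below untreated, where 13.5% of the 458 tested miRNAs were below in 6 of 6. Scaled to total miRNA counts without the TMM factor, 3 were above untreated and 3 below. The lowest were siRNA 1 at 24 h and 36 h, while siRNA 1 at 48 h lay within the counting interval of untreated. The mean was 2281 ± 532 CPM (SD, n = 6). In bulk RNA, a lower level in every cell and a loss from some of the cells cannot be told apart.

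The passenger arms were far lower. miR-425-3p had 86.0, 106 and 67.7 CPM with siRNA 1 at 24, 36 and 48 h, and 70.7, 63.6 and 83.5 CPM with siRNA 2, against 81.1 CPM in untreated cells (435 reads, interval 73.7 to 89.1). Its 6 values lay 3 above and 3 below untreated, with siRNA 1 at 36 h the highest. miR-191-3p had 9.46, 9.11 and 10.9 CPM with siRNA 1, and 8.37, 11.97 and 10.4 CPM with siRNA 2, against 5.97 CPM in untreated cells (32 reads, interval 4.08 to 8.43). All 6 were above untreated, as were 10.3% of the 458 tested miRNAs. They were also above in 6 of 6 on the scale of total miRNA counts, where 15.9% of the miRNAs were, but 5 of 6 were below with all reads as the scale. These values rest on 18 to 32 reads per library, and the untreated interval reached above the lowest siRNA-treated value.

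**Figure D1:**
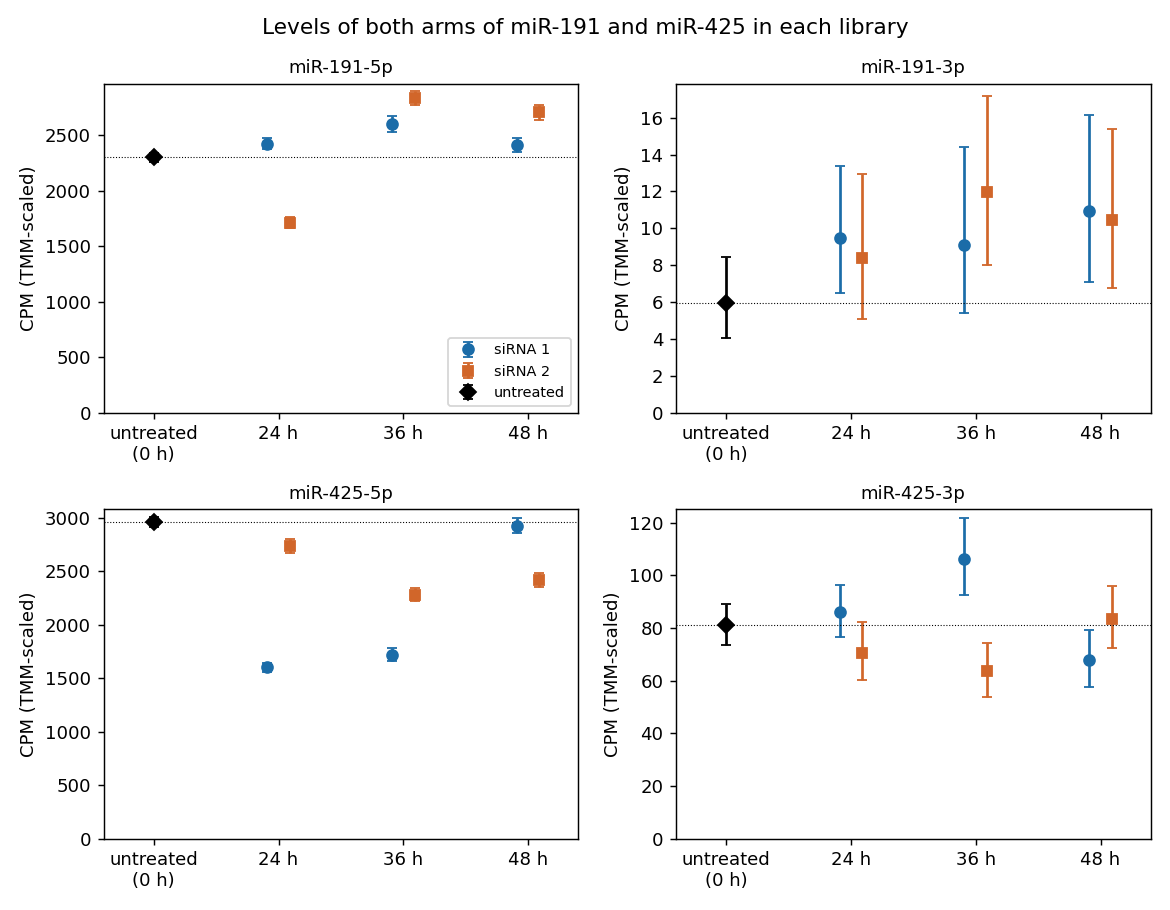
CPM of each arm (vertical axes from 0) in untreated cells at 0 h and after 24, 36 and 48 h with siRNA 1 (circles) or siRNA 2 (squares), 1 library a point, bars being 95% Clopper-Pearson counting intervals and the dotted line the untreated value. On this TMM scale miR-425-5p lay below the line in 6 of 6 siRNA-treated libraries (3 of 6 with total miRNA counts as the scale) and miR-191-3p above it in 6 of 6 (1 of 6 with all reads as the scale), with the other arms on both sides.

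Over the 3 times together, none of the 4 arms differed from untreated beyond the spread between libraries. edgeR called 0 of 4 arms and 0 of 458 miRNAs (0% called), with 0 arms and 23 miRNAs at an unadjusted p under 0.05. DESeq2 called 0 arms and 1 miRNA, and limma-voom 0 and 0, again with 0 arms at an unadjusted p under 0.05. miR-425-5p had a log2 fold change of -0.39 ± 0.34 (SE, edgeR adjusted p = 0.899), with a 95% interval of 0.436 to 1.34 in fold. miR-191-5p had 0.08 ± 0.28 (adjusted p = 0.934), an interval of 0.663 to 1.68 in fold. miR-191-3p had 0.74 ± 0.48 (adjusted p = 0.899) and an interval of 0.766 to 3.66 in fold, the widest of the 4. miR-425-3p had -0.03 ± 0.38 (adjusted p = 0.992) and an interval of 0.527 to 1.83 in fold. A fall of miR-425-5p by 2-fold and no change at all both lie inside its interval.

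The scale decided the miR-425-5p call. Scaled to all reads of a library in place of miRNA reads, miR-425-5p had 238 to 481 CPM with siRNA and 1110 CPM untreated, and miR-191-5p 263 to 582 CPM with siRNA and 863 CPM untreated. Both were lower in 6 of 6 libraries on that scale, as were 80.8% of the 458 tested miRNAs. With all reads as the scale, the median of all tested miRNAs moved to -1.13 and 120 of 458 miRNAs were called (26.2%), 3 higher and 117 lower. miR-425-5p was then called lower at -1.497 ± 0.50 (adjusted p = 0.0300), while miR-191-5p stood at -0.99 ± 0.53 (adjusted p = 0.126). With total miRNA counts as the scale, the value of miR-425-5p was -0.15 ± 0.37 (edgeR adjusted p = 0.911), and the median of all tested miRNAs moved to 0.19. The smaller miRNA share of reads in the siRNA-treated libraries moves with this result, and its part in it was not tested.

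Taken time by time, the arms showed no called change either. edgeR called 0 of 4 arms and 0 of 458 miRNAs (0%) at 24 h, at 36 h and at 48 h, with 0 arms at an unadjusted p under 0.05 at any time by edgeR, DESeq2 or limma-voom. At that unadjusted level edgeR had 11, 19 and 53 miRNAs at 24, 36 and 48 h, and DESeq2 called 1, 7 and 12 and limma-voom 0, 0 and 0. The largest departure of miR-425-5p was at 36 h, -0.57 ± 0.39 (SE, edgeR adjusted p = 0.946), beside -0.45 ± 0.39 at 24 h (adjusted p = 0.997) and -0.15 ± 0.40 at 48 h (adjusted p = 0.892). With siRNA 1 as the lone 36 h library its 36 h value was -0.79, and with siRNA 2 as the lone one it was -0.34. The 24 h value was -0.90 without siRNA 2 at 24 h and -0.11 without siRNA 1 at 24 h. The 48 h value was -0.29 without siRNA 1 at 48 h and -0.016 without siRNA 2 at 48 h. miR-191-5p stood at -0.15 ± 0.32, 0.24 ± 0.32 and 0.15 ± 0.32 at 24, 36 and 48 h (adjusted p = 0.997, 0.946 and 0.850). miR-191-3p stood at 0.58 ± 0.53, 0.82 ± 0.53 and 0.83 ± 0.53 (adjusted p = 0.997, 0.946 and 0.473). The 3 comparisons share the untreated library. With all reads as the scale, edgeR called 0 of the 4 arms at 24, 36 and 48 h, where 0.437%, 10.7% and 25.8% of the miRNAs were called. The nearest to the threshold was miR-425-5p at 36 h, -1.75 ± 0.62 (SE, edgeR adjusted p = 0.0538). On that scale its unadjusted edgeR p was under 0.05 at each time. Without both 36 h libraries it called 0 of 4 arms at 24 h and at 48 h, beside 2.78% and 25.1% of 467 miRNAs, and 0 of 4 over both times together, beside 10.7%.

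The comparison of 48 h with 24 h leaves the untreated library out of the contrast. Both guides had positive values of nearly equal size, 0.31 ± 0.26 for miR-191-5p (SE, edgeR adjusted p = 0.532, interval 0.806 to 1.90 in fold) and 0.30 ± 0.33 for miR-425-5p (adjusted p = 0.635, interval 0.720 to 2.11 in fold). This likeness rested on single libraries: without siRNA 1 at 24 h the values were 0.58 for miR-191-5p and -0.036 for miR-425-5p, and without siRNA 2 at 24 h they were 0.13 and 0.79 in the same order. In CPM, siRNA 2 gave miR-191-5p 2705 CPM at 48 h against 1713 CPM at 24 h, and siRNA 1 gave miR-425-5p 2927 CPM at 48 h against 1604 CPM at 24 h. With the other siRNA, miR-191-5p had 2414 CPM at 48 h against 2424 CPM at 24 h, and miR-425-5p 2420 CPM against 2734 CPM. The passengers stood at 0.26 ± 0.43 for miR-191-3p (adjusted p = 0.766) and -0.05 ± 0.35 for miR-425-3p (adjusted p = 0.948). edgeR called 0 of 4 arms and 0 of 458 miRNAs (0%), with 0 arms and 84 miRNAs at an unadjusted p under 0.05, and DESeq2 called 0 arms and 23 miRNAs and limma-voom 0 and 0. Without both 36 h libraries 134 of 467 miRNAs were called (28.7%), and again 0 of the 4 arms. With all reads as the scale 6.33% were called and 0 of the arms.

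The siRNAs were compared within times. miR-425-5p was higher with siRNA 2 by 0.77 at 24 h and 0.41 at 36 h and lower by 0.27 at 48 h on the log2 CPM scale (-0.27 as siRNA 2 minus siRNA 1). Of the 458 miRNAs, 16.4% differed by more between the siRNAs at 24 h, 65.7% at 36 h and 48.5% at 48 h. Over the times its log2 fold change was 0.33 ± 0.27 (SE, edgeR adjusted p = 0.992), and leaving out single libraries gave 0.094 (without siRNA 2 at 24 h) to 0.64 (without siRNA 1 at 48 h). miR-191-5p differed by -0.50, 0.13 and 0.16 at 24, 36 and 48 h (-0.04 ± 0.24 over the times, adjusted p = 0.992). miR-425-3p differed by -0.28, -0.74 and 0.30, in each case with the sign opposite to its own guide (-0.21 ± 0.33, adjusted p = 0.992). edgeR called 0 of 4 arms and 0 of 435 miRNAs (0%), with 0 arms and 6 miRNAs at an unadjusted p under 0.05, and DESeq2 and limma-voom called 0 of each.

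**Figure D2:**
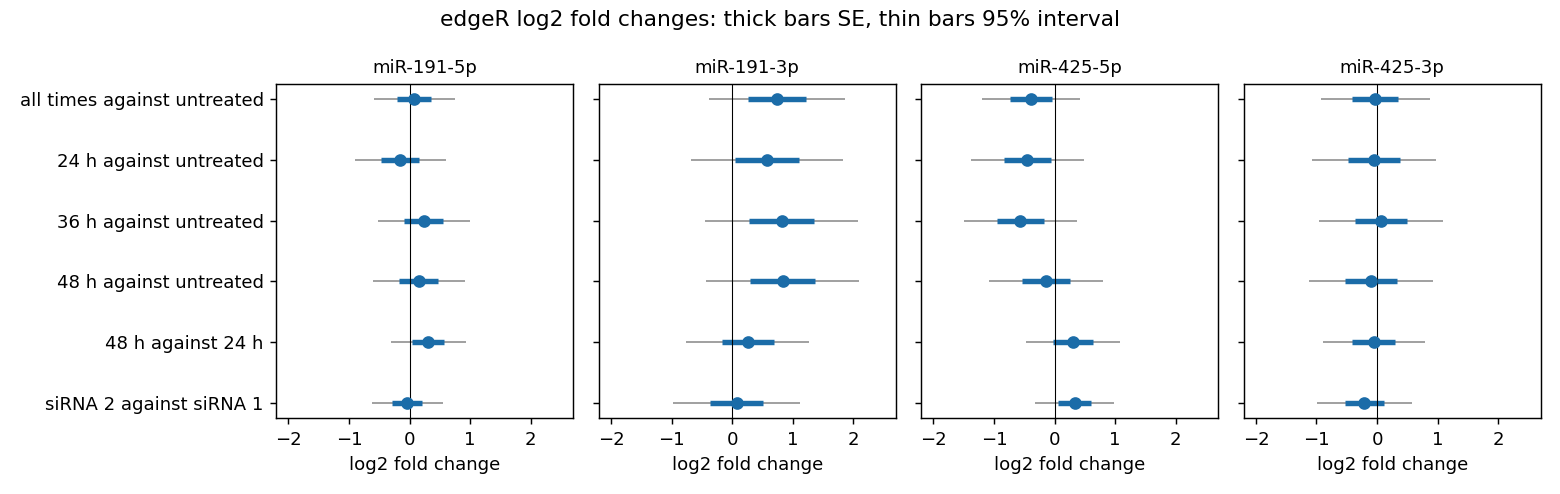
log2 fold changes (horizontal axes) of the 4 arms from the edgeR fit in 6 comparisons, with thick bars for the SE and thin bars for the 95% interval. Every interval crosses 0, and those of miR-191-3p are the widest.

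Ratios within a library do not depend on the scale, and they showed how the neighbours moved apart. The ratio of miR-425-5p to miR-191-5p reads was 0.662, 0.662 and 1.21 with siRNA 1 at 24, 36 and 48 h and 1.60, 0.805 and 0.895 with siRNA 2, against 1.29 in untreated cells (95% interval 1.26 to 1.32). miR-425-5p was thus the more abundant guide in untreated cells, with siRNA 1 at 48 h and with siRNA 2 at 24 h, and miR-191-5p in the other 4 libraries. The siRNA-treated values, 0.972 ± 0.367 (SD, n = 6), lay on both sides of untreated and spanned 2.41-fold. At 24 h the siRNAs gave the extremes, with intervals of 0.639 to 0.685 for siRNA 1 and 1.53 to 1.66 for siRNA 2, so counting error does not cover this gap. Without siRNA 2 at 24 h the mean was 0.847. The SD of the log2 ratio was 0.51, near the median of 0.44 over the 2145 pairs among 66 miRNAs with at least 1000 CPM, of which 40.7% had a larger one.

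The 3p share of a hairpin's reads compares its arms as sequenced, and how the arms were kept in the cells was not tested. For miR-425 it was 5.09%, 5.82% and 2.26% with siRNA 1 at 24, 36 and 48 h and 2.52%, 2.71% and 3.33% with siRNA 2, against 2.67% in untreated cells (exact interval 2.42 to 2.92). The shares of siRNA 1 at 24 h and 36 h, with intervals of 4.53 to 5.69 and 5.08 to 6.63, stood above the other 5 libraries, whose intervals ended at 3.82. The same 2 libraries had the lowest miR-425-5p, while their miR-425-3p, 86.0 and 106 CPM, was above the 81.1 CPM of untreated cells. The mean share was 3.62% ± 1.48 (SD, n = 6), and 3.18% without siRNA 1 at 36 h, the library with high miR-1-3p. The SD of the log2 ratio of the arms was 0.58, near the median of 0.59 over 110 hairpins with both arms tested, and counting error alone gives about 0.11.

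For miR-191 the 3p share was 0.389%, 0.350% and 0.451% with siRNA 1 at 24, 36 and 48 h and 0.486%, 0.421% and 0.384% with siRNA 2. In untreated cells it was 0.258% (interval 0.177 to 0.365), below all 6, although the intervals of the libraries overlap. How many other hairpins had all 6 on the same side of untreated was not counted. The untreated share rests on the same 32 reads of miR-191-3p as its level in CPM. The siRNA-treated mean was 0.413% ± 0.0495 (SD, n = 6). The SD of the log2 ratio of the arms over the siRNA-treated libraries was 0.17, the smallest of the same 110 hairpins, where counting error of the few 3p reads alone gives about 0.30. Its place among the hairpins therefore cannot be separated from counting error at this depth. No test was made of the shares, with 1 untreated library.

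**Figure D3:**
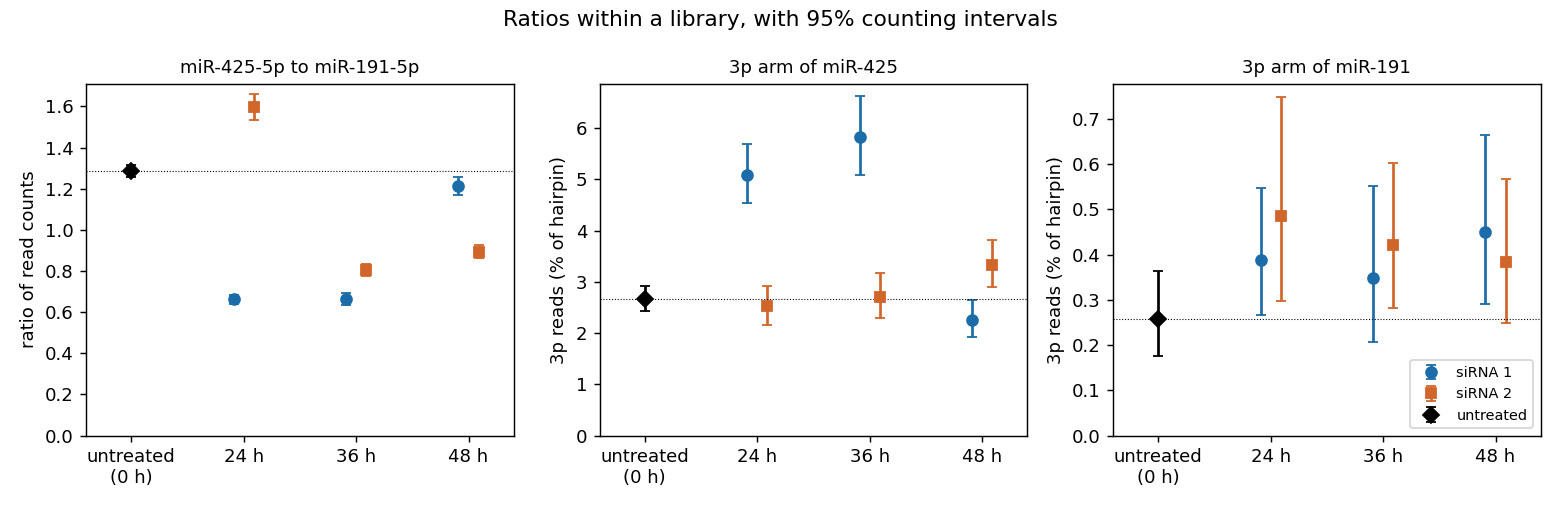
Ratio of miR-425-5p to miR-191-5p read counts (left) and the 3p share of the reads of each hairpin in percent (middle and right), by time and siRNA, with 95% exact counting intervals and the untreated value as a dotted line. siRNA 1 at 24 h and 36 h stood at 5.09% and 5.82% for miR-425, above the other 5 libraries, while the intervals for miR-191 overlap.

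Across the 7 libraries the arms had no common course. Pearson's r of log2 CPM was -0.36 between miR-191-5p and miR-425-5p, 0.49 between the arms of miR-191 and -0.62 between the arms of miR-425, as a description over 7 libraries that share their scale. The miRNAs most like miR-191-5p among 273 compared were miR-25-3p (r = 0.97), miR-92b-3p (0.93), miR-125a-5p (0.92), miR-378a-5p (0.92) and miR-125b-5p (0.92). miR-25-3p, an arm from the cluster in MCM7, had its lowest value in the same library, 4057 CPM with siRNA 2 at 24 h, against 5415 CPM untreated. Those most like miR-425-5p were miR-218-5p (0.91), miR-589-5p (0.85), miR-132-3p (0.82), miR-30e-3p (0.82) and miR-24-2-5p (0.82). miR-218-5p was lowest with siRNA 1 at 36 h, 856 CPM, and at 940 CPM with siRNA 1 at 24 h, against 1156 CPM untreated.

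As miR-191-5p is a common reference in PCR assays, its steadiness was set beside 15 other miRNAs used in that way. Its SD of log2 CPM over the siRNA-treated libraries was 0.26, place 83 of 458 from the steadiest and place 27 of the 66 miRNAs with at least 1000 CPM, whose median was 0.32. miR-425-5p had 0.35, place 41 of the 66. The reference list had a median of 0.23, with miR-320a-3p at 0.07, let-7a-5p at 0.10 and miR-423-5p at 0.11 at the steady end and miR-103a-3p at 0.66 at the other. miR-425-3p had an SD of 0.27 and miR-191-3p of 0.18. With total miRNA counts as the scale the SD of miR-191-5p was 0.43.

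**Figure D4:**
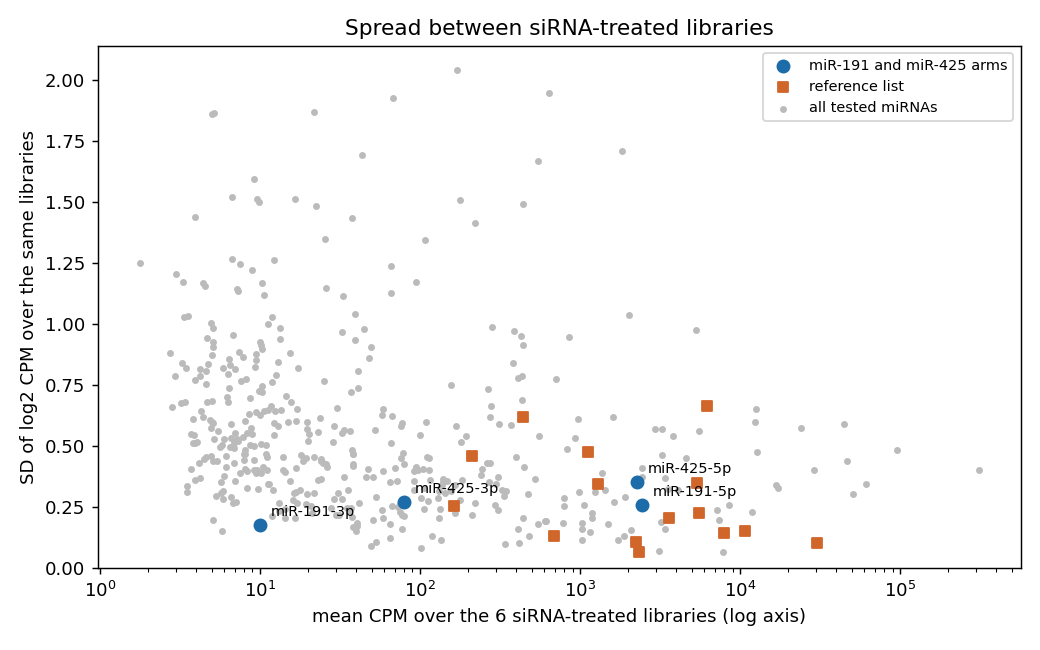
SD of log2 CPM over the 6 siRNA-treated libraries (vertical axis) against the mean CPM over the same libraries (log axis) for the 458 tested miRNAs, with the 4 arms in blue and 15 reference miRNAs as squares. miR-191-5p at 0.26 and miR-425-5p at 0.35 lie within the range of the reference list, 0.07 to 0.66.

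Other miRNAs of intronic hairpins were counted in the same fit. Of 38 with protein-coding hosts 36 were tested, and edgeR called 0 in any of the 6 comparisons. Their median log2 fold change over all times was -0.06, beside -0.05 for all tested miRNAs, with 16 above and 20 below 0. The most abundant were miR-151a-3p of PTK2 (0.09 ± 0.44 SE), miR-26a-5p of the CTDSP genes (0.14 ± 0.26) and miR-30c-5p (0.16 ± 0.29). Of 19 miRNAs with a hairpin on the short arm of chromosome 3, 5 were tested and 0 called, 3 above and 2 below 0. They included let-7g-5p (-0.60 ± 0.30), miR-26a-5p and miR-128-3p (0.46 ± 0.41). miR-26a-5p also has a hairpin on chromosome 12 and miR-128-3p on chromosome 2, so their counts cannot be assigned to chromosome 3. Of the 15 reference miRNAs 0 were called, and the median was 0.02, with 9 above and 6 below 0. The most abundant of these were let-7a-5p (0.02 ± 0.23), miR-24-3p (0.02 ± 0.26) and miR-26a-5p.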

How the data were processed

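Small RNA libraries were made from total RNA with an NEB ligation kit, per the labels' protocols. For each library the authors deposited unnormalized read counts of mature miRNAs, per the file headers, followed by 5 summary lines. These lines were not tested and entered no library size based on miRNA reads. They are part of the total of all reads, and so of the library size where all reads are the scale. Reads assigned to no feature made up 56.9% of that total in the untreated library and 86.6% with siRNA 1 at 36 h. Which aligner, counter and genome build they used is not given in the sources used here, and coordinates are those of RefSeq and GENCODE on GRCh38. Ligation efficiency differs between sequences, so levels of different arms are compared only as measured.

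Differences were tested by quasi-likelihood in edgeR 4.0.16 under R 4.3.3, scaled by TMM, keeping miRNAs whose mean count over the libraries reached 10, and Benjamini-Hochberg adjusted over all tested miRNAs at 0.05. Untreated and the 3 times entered the same fit, so the untreated library, alone in its group, is taken to vary as the others do. The siRNA comparison used the 6 siRNA-treated libraries with time as a factor. Standard errors are those whose squared ratio to the log2 fold change equals the F statistic. DESeq2 1.42.0 and limma-voom (limma 3.58.1) were alternatives. Log2 CPM used a prior count of 2. Counting intervals are exact (Clopper-Pearson, 95%), for ratios too. Reads have no molecular identifiers, so intervals cover counting error only. The fit was also run on simulated counts, which had the same dispersion for every miRNA and no 36 h libraries that differed more than the rest. That run therefore does not show how the fit behaves on these data.

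The members, lists and tests were chosen with earlier results of these data known. The miRNAs named are the 4 arms, the 5 most like each guide by Pearson's r among those whose mean count reached 50, and the 3 most abundant of each list. Others, such as the steadiest reference miRNAs, were chosen after their values were seen. So were the comparisons of ratios over pairs and hairpins.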

Additional observations from a re-analysis of the deposited data

How the results depend on the processing

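Of 354 values of the arms under alternatives, 315 kept their direction and their side of the threshold, 38 changed sign and 1 newly passed the threshold. The cause of each change was not tested, and the values that changed sign were not called under any setting. The low read share of miRNAs in the siRNA-treated libraries and the few reads of miR-191-3p limit these results, and a minimum mean count of 50 leaves miR-191-3p without a value. The counts of miRNAs called, 0 by edgeR in every comparison, became 1, 1, 7, 12 and 23 with DESeq2 over all times, at 24 h, 36 h and 48 h against untreated and at 48 h against 24 h, with no arm among them. In the same order they became 120, 2, 49, 118 and 29 with all reads as the scale, and 12, 2, 10, 39 and 51 with no filter on low counts. Without both 36 h libraries they were 50 over all times, 13 at 24 h, 117 at 48 h and 134 at 48 h against 24 h. Leaving out single libraries gave 0 to 65, 0 to 14, 0 to 91, 0 to 113 and 0 to 131 in that order, and all values above 0 came from leaving out siRNA 1 at 36 h (65, 5, 91, 94 and 122) or siRNA 2 at 36 h (31, 14, 14, 113 and 131).

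With all reads as the scale, miR-425-5p over all times was -1.497 and passed the threshold, and these changed sign: miR-191-5p over all times (-0.99), at 36 h (-0.97) and at 48 h (-0.96), miR-191-3p over all times (-0.33), at 24 h (-0.33), 36 h (-0.37) and 48 h (-0.28), and miR-425-3p at 36 h (-1.20). The median of all tested miRNAs moved to -1.13, -0.97, -1.25 and -1.14 over all times and at 24, 36 and 48 h. With total miRNA counts as the scale, miR-425-3p was 0.20 over all times, 0.26 at 48 h and 0.29 at 48 h against 24 h, and miR-425-5p was 0.21 at 48 h. The median moved there to 0.19, 0.31, 0.33 and 0.37 over all times, at 36 h, at 48 h and at 48 h against 24 h. miR-425-3p, near 0 in the fit, was 0.040 over all times and 0.015 at 24 h both with DESeq2 and with its size factors, and 0.012 at 24 h without both 36 h libraries. With no filter miR-191-5p was -0.0071 over all times and miR-425-3p -0.044 at 36 h. For siRNA 2 against siRNA 1 without both 36 h libraries, miR-191-3p was -0.020 and miR-425-3p 0.11. The SD of log2 CPM became 0.43 and 0.42 for miR-191-5p and 0.34 and 0.34 for miR-191-3p with total miRNA counts and with all reads as the scale, and 0.17 for miR-425-3p without both 36 h libraries.

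Leaving out single libraries moved miR-191-5p between -0.012 and 0.18 over all times, -0.43 and 0.062 at 24 h and -0.18 and 0.20 for siRNA 2 against siRNA 1. miR-425-3p ranged from -0.14 to 0.079 over all times, -0.20 to 0.072 at 24 h, -0.32 to 0.39 at 36 h, -0.26 to 0.039 at 48 h, -0.21 to 0.093 at 48 h against 24 h and -0.50 to 0.078 for siRNA 2 against siRNA 1. miR-425-5p ranged from -0.036 to 0.79 at 48 h against 24 h, with the lowest value without siRNA 1 at 24 h. miR-191-3p ranged from -0.076 to 0.21 for siRNA 2 against siRNA 1.

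The siRNA number is the nearest thing to a replicate number and does not pair the libraries, since deviations of same-numbered libraries correlated at 0.10 (24 and 36 h), -0.25 (24 and 48 h) and -0.16 (36 and 48 h) over 458 miRNAs. With it as a replicate block 0 miRNAs were called in each comparison with time or untreated, and miR-425-5p over all times was -0.40.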

Other observations

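The passengers kept another ratio to each other than the guides did. Reads of miR-425-3p per read of miR-191-3p numbered 9.09, 11.7 and 6.2 with siRNA 1 at 24, 36 and 48 h and 8.45, 5.31 and 8.0 with siRNA 2, against 13.6 in untreated cells (95% interval 9.49 to 20.1). All 6 were below untreated, but several intervals overlap with it, among them siRNA 1 at 24 h (6.30 to 13.5) and siRNA 1 at 36 h (7.20 to 20.1). The untreated ratio rests on the same 32 reads of miR-191-3p as the 3p share of miR-191, so these are not separate observations. How many other pairs had all 6 on the same side was not counted. No test was made, since there is 1 untreated library.

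The miR-425 hairpin, both arms together, gave 41.0%, 41.2% and 55.3% of the reads of the hairpin pair with siRNA 1 at 24, 36 and 48 h and 62.0%, 45.2% and 48.0% with siRNA 2, against 56.9% in untreated cells.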
